A study of Mus musculus with 6 samples.

Results

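Fos, Fosl1, Dusp1 and Btg2 are genes of the AP-1 and immediate early response, and their 4 rows were taken by symbol from a table of 8078 genes in sorted horizontal basal cells, the reserve stem cells of the olfactory epithelium. All 4 were listed under a symbol of their own and all 4 passed the filter on low values. These cells lie dormant on the basement membrane until a lesion removes the epithelium that covers them. RNA came from 12 wk old B6 mice that carried KRT5-CreER together with the Ai9 fl(Stop)TdTomato reporter. In both groups every animal thus had a tamoxifen-dependent Cre driven by the keratin 5 promoter and had received tamoxifen 2 weeks before the sort, so cells were collected because they, or the cells they came from, had used the keratin 5 promoter. The uninjured group (3 libraries) had no lesion. The injured group (3 libraries) was exposed to methyl bromide gas at 180 ppm for 8 h and taken 18 h later. Each library pooled several animals, so the library is the replicate.

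Immediate early genes are transcribed within minutes of a stimulus from factors already present in the cell, and their mRNAs are as a rule short-lived. Fos encodes a bZIP protein that pairs with a Jun protein to form the transcription factor AP-1. Fosl1, also called Fra-1, encodes a Fos relative without the strong activation domain of Fos. It is itself a target of AP-1 and typically follows Fos, persisting in activated and migrating keratinocytes. Dusp1 encodes a nuclear phosphatase that switches off MAP kinases, and Btg2 an antiproliferative protein that recruits the mRNA deadenylation machinery. Enzymatic dissociation of tissue at body temperature is a known inducer of Fos, Dusp1, Btg2 and heat shock genes. Here, per the labels, each tissue stood 10 min in trypsin and then 15 min in each of 2 changes of an enzyme cocktail at 37 °C, 40 min in all. Both groups had this treatment, and no undissociated sample was analysed here, so the part of dissociation in any level below was not tested.

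The upstream sequences of Fos, Dusp1 and Btg2 are shown, the 3 members that RefSeq promoters (GRCm38.p6) matched, while Fosl1 had no match. Each runs 5′ to 3′ over the 250 bases before the annotated start, at chr12:85473640-85473889 (plus strand) for Fos, chr17:26508473-26508722 (minus strand) for Dusp1 and chr1:134079156-134079405 (minus strand) for Btg2. Capitals mark matches, on either strand, to the cyclic AMP response element TGACGTCA, to its shorter core TGACG, to the AP-1 element TGANTCA, to the CArG box bound by serum response factor and to TATAAA. The core lies within the full element.
Fos: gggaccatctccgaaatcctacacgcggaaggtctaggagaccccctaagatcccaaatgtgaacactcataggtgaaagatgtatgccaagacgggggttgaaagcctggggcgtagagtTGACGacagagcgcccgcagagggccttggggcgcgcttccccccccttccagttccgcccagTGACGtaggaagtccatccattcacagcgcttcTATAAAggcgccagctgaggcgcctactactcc
Dusp1: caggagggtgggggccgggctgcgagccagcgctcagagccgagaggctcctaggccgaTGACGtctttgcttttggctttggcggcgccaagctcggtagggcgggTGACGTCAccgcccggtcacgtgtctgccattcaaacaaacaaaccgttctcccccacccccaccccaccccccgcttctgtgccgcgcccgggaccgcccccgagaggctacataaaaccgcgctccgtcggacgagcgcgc
Btg2: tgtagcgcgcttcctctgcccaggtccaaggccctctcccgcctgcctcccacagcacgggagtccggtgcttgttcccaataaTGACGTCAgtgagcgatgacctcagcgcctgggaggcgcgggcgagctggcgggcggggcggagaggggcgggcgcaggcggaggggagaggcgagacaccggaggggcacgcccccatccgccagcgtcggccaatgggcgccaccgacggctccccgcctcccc
The full TGACGTCA stood in Dusp1 (bases -143 to -136 from the start) and in Btg2 (bases -166 to -159), and in 1.55% of the 32851 promoter windows of the same length. The core TGACG stood in all 3, and in 17.8% of all windows. In Fos it began at bases -129 and -66, the latter upstream of a TATAAA at -33. TATAAA stood in 12.4% of all windows, TGANTCA in 6.75% and the CArG box in 1.47%. Neither TGANTCA nor the CArG box was found in these 3 windows. Sequence further upstream than these 250 bases was not searched, so elements there would be missed. A match describes letters and not binding.

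The mRNAs of the members differed in AU-rich letters, the ATTTA pentamer of messages that ZFP36 proteins target for decay. In the 3′ untranslated region of the GENCODE M21 transcript with the longest coding sequence, Fos had 4 ATTTA in 815 bases and Dusp1 had 4 in 690. Their densities, 4.91 and 5.80 per kilobase, lay above those of 92.8% and 95.2% of the 6934 tested genes with such a region of at least 100 bases. Btg2 had 5 in 2199 bases (2.27 per kilobase, above 66.5% of genes). Fosl1 had 1 in 638 bases (1.57 per kilobase, above 51.6%), near the median of 1.49. The densest 30-base stretch of Fos and of Dusp1, and the stretch with the single pentamer of Fosl1, are given with ATTTA in capitals.
Fos: aacgtttttattgtgttttcaATTTATTTA
Dusp1: ggctcatgggagctggtccttATTTATTTA
Fosl1: agcctccaccgcaagggcagctgctATTTA
The stretches of Fos and Dusp1 each hold 2 overlapping pentamers, and that of Fosl1 holds 1.

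Values are taken as FPKM, fragment counts corrected for transcript length and library size, so levels of different genes can be compared. Read depth is unknown. Summed FPKM was 164265 to 231755 per library. A change is the mean of log2(FPKM + 1) in injured libraries less that in uninjured ones, a scale on which low genes change too little, with the standard error (SE) and the adjusted p of limma, a linear model fitted over all 7987 genes averaging 1 FPKM or more. The median change of all these genes was 0.16, and -0.01 after upper-quartile scaling, so changes are to be read against that shift. Injured replicate 2 stood apart: its correlation with the other injured libraries across genes was 0.734 and 0.754, against 0.849 between these and 0.885 to 0.905 among uninjured libraries. Its correlation with the uninjured libraries was 0.804 to 0.83, higher than with either injured library. That of injured replicates 1 and 3 with the uninjured libraries was 0.788 to 0.825. Results that turn on it are therefore also given without it, a choice made with the values known. The basal cell factor Trp63 was at 157 to 194 FPKM in uninjured and 99.5 to 140 in injured libraries, while Krt5 and Sox2 were not analysed here. Xist, the RNA of the inactive X chromosome, was at 27.0 to 33.8 FPKM in uninjured and 0.0645 to 0.561 in injured libraries, so lesion and sex of the pools cannot be told apart.

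Fosl1, the late member, was scarcely present without injury and abundant in 2 of 3 injured libraries. It was at 1.10, 0.001 and 0.913 FPKM in uninjured replicates 1 to 3, where 0.001 is the lowest value the table holds. It was at 25.3, 1.08 and 43.9 FPKM in injured replicates 1 to 3. Injured replicates 1 and 3 were 23.0-fold and 39.9-fold above the highest uninjured library, while injured replicate 2 lay just below that library, so the groups overlapped. Within a library, Fosl1 was above 4.10% of all listed genes in injured replicate 2 and above 6.07% or less in uninjured ones, but above 81.9% and 90.7% in injured replicates 1 and 3. Over the 6 libraries the log2 change was 3.08 (SE 1.16, n = 3 per group), which did not pass (limma adjusted p = 0.407). Without injured replicate 2 it was 4.43 (SE 0.42, limma adjusted p = 0.00534). That call leaves out the injured library with low Fosl1, a choice made with the values known, and so describes injured replicates 1 and 3 alone.

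None of the 4 members passed over the 6 libraries, where 0% of all genes tested were called higher and 0.0125% lower. Before adjustment, with p under 0.05, 1 of 4 was higher and none lower, where limma gave 7.15% of all genes as higher and 4.04% as lower. Without injured replicate 2, 1 of 4 was called higher and none lower, where 3.52% of genes were called higher and 1.17% lower. Leaving out that library also leaves only 2 injured libraries. In the pathway lists that follow, with 93 tested genes among 133 listed symbols, limma called 0 over the 6 libraries, while 11 were higher and 1 lower with an unadjusted p under 0.05.

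Fos, the early member, was among the most abundant mRNAs of every library. It was at 464, 243 and 276 FPKM in uninjured replicates 1 to 3, which placed it 17th, 62nd and 55th from the top of the 8078 genes. It was at 259, 104 and 473 FPKM in injured replicates 1 to 3, at places 82, 166 and 36. The groups overlapped widely: the highest and the lowest of all 6 libraries were both injured. The highest was so by a small margin. After upper-quartile scaling it was uninjured replicate 1, at 515 FPKM against 413 in injured replicate 3. The log2 change was -0.43 (SE 0.55, limma adjusted p = 0.785) and 0.15 (SE 0.41, limma adjusted p = 0.835) without injured replicate 2, so its direction rested on that library.

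**Figure D1:**
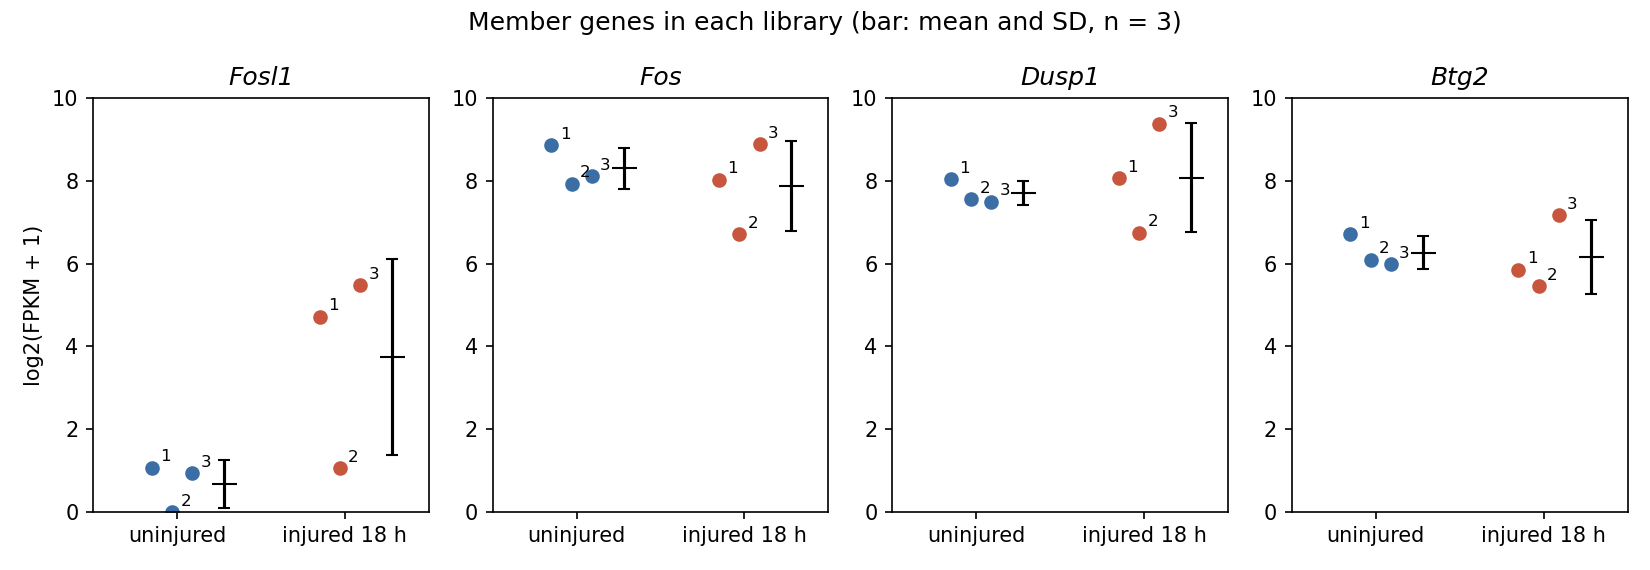
Fosl1, Fos, Dusp1 and Btg2 in each library, as log2(FPKM + 1) on the y axis, with points numbered by replicate and the mean and SD of 3 libraries as a bar. Fosl1 is high in injured replicates 1 and 3 alone, and the other 3 genes are lowest in injured replicate 2 and highest in injured replicate 3.

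Fosl1 was nearer to Fos in each injured library than in any uninjured one, though not by the same gene in each. Fosl1 minus Fos on the log2(FPKM + 1) scale was -7.79, -7.93 and -7.18 in uninjured replicates 1 to 3. It was -3.31, -5.66 and -3.40 in injured replicates 1 to 3. The groups did not overlap on this difference, with means of -7.63 ± 0.40 and -4.12 ± 1.33 (SD, n = 3), a shift of 3.51. Of single genes tested, 12% had all injured libraries above all uninjured ones. No such share was counted for pairs of genes. As a ratio of levels, there were 421 and 303 FPKM of Fos for each FPKM of Fosl1 in uninjured replicates 1 and 3, and 10.3, 96.3 and 10.8 in the injured libraries. In injured replicates 1 and 3 the narrower gap came with more Fosl1, whereas in injured replicate 2 Fosl1 was level with uninjured replicate 1 and Fos was lower. Both genes were chosen with their values known, so no test is given.

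**Figure D2:**
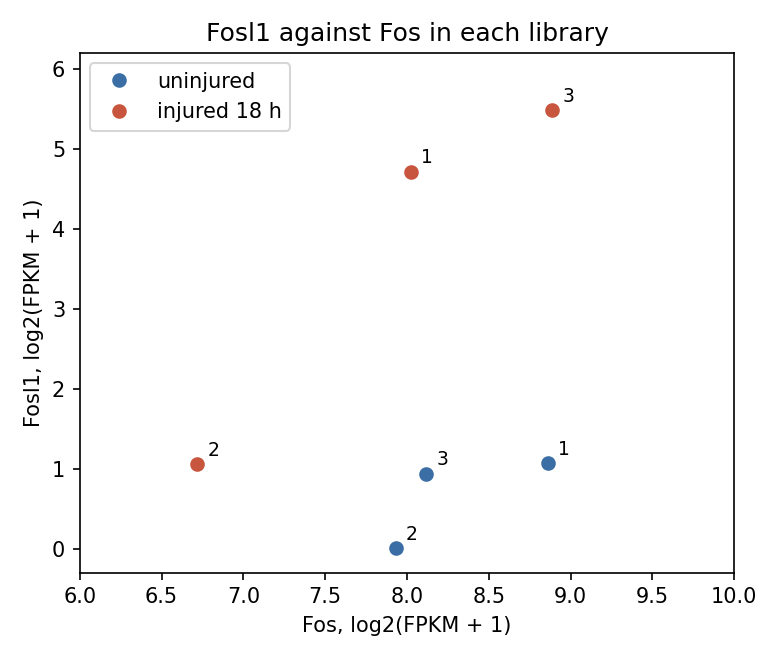
Fosl1 (y axis) against Fos (x axis) in each of the 6 libraries, both as log2(FPKM + 1), with points numbered by replicate. Uninjured libraries and injured replicate 2 lie at the bottom, with Fosl1 at or below 1.10 FPKM, where Fos runs from 104 to 464 FPKM, and injured replicates 1 and 3 at the top, with Fos at 259 and 473 FPKM.

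Dusp1, the MAP kinase phosphatase, stood at 263, 188 and 179 FPKM in uninjured replicates 1 to 3 and at 268, 107 and 667 in injured replicates 1 to 3. Injured replicate 3 was above all other libraries, injured replicate 2 below all, and injured replicate 1 close to the highest uninjured one. The log2 change was 0.37 (SE 0.60, limma adjusted p = 0.838), and 1.02 (SE 0.43, limma adjusted p = 0.204) without injured replicate 2. It was -0.29 without injured replicate 3, so the direction depended on that library.

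Btg2, the deadenylation cofactor, stood at 104, 67.3 and 62.3 FPKM in uninjured replicates 1 to 3 and at 56.7, 42.7 and 143 in injured replicates 1 to 3. Injured replicates 1 and 2 were below each uninjured library and injured replicate 3 above each. The log2 change was -0.11 (SE 0.45, limma adjusted p = 0.945), and 0.24 (SE 0.43, limma adjusted p = 0.749) without injured replicate 2.

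The spread between injured libraries exceeded that between uninjured ones for all 4 members. The SD of log2 values was 2.37 for Fosl1, 1.09 for Fos, 1.32 for Dusp1 and 0.90 for Btg2 in injured libraries, and 0.58, 0.49, 0.30 and 0.39 in uninjured ones. Over all genes tested the median SD was 0.46 and 0.25, so injured libraries were the more variable in general. Fosl1 varied more among injured libraries than 99.4% of genes, Dusp1 than 93.8%, Fos than 89.8% and Btg2 than 84.2%. Fos, Dusp1 and Btg2 were each 3.34-fold to 6.25-fold higher in the highest than in the lowest injured library. The upper quartile of all genes ran in the same order, at 18.7, 16.4 and 19.5 FPKM in injured replicates 1 to 3, a much smaller range. After scaling to equal upper quartiles, Fos was at 237, 108 and 413, Dusp1 at 245, 111 and 583 and Btg2 at 51.8, 44.4 and 125 FPKM in injured replicates 1 to 3. In uninjured replicates 1 to 3, scaled Fos was at 515, 257 and 290, Dusp1 at 293, 199 and 188 and Btg2 at 116, 71.1 and 65.4 FPKM.

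The 2 other Fos family genes did not share the low uninjured level of Fosl1. Fosb was at 67.4, 46.9 and 46.1 FPKM in uninjured and at 59.3, 27.6 and 188 in injured replicates 1 to 3. Fosl2 was at 14.8, 9.66 and 8.98 FPKM in uninjured and at 10.96, 4.88 and 36.9 in injured replicates 1 to 3. For both, injured replicate 2 was the lowest and injured replicate 3 the highest of the 6 libraries, and neither passed (limma adjusted p = 0.849 and 0.916). The 4 genes of the Fos family had a median log2 change of 0.29, which became 0.92 without injured replicate 2 and -0.44 without injured replicate 3, so its direction rested on single libraries.

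Both tested genes of the Jun proteins, the obligate partners of Fos proteins, were below each uninjured library in injured replicate 2, against 30.6% of all genes tested. Junb was at 49.1, 49.7 and 45.9 FPKM in uninjured and at 26.5, 10.2 and 59.8 in injured replicates 1 to 3 (log2 change -0.89, SE 0.54, limma adjusted p = 0.564), a change of -0.27 without injured replicate 2. Jund was at 6.94, 6.97 and 8.78 FPKM in uninjured and at 3.24, 4.59 and 7.92 in injured replicates 1 to 3 (log2 change -0.52, SE 0.33, limma adjusted p = 0.570). Jun was not analysed here. Of 13 ATF, BATF and MAF partners, 4 were tested and none passed, with a median of 0.15 that was -0.07 without injured replicate 3 and -0.03 after upper-quartile scaling. Maff, a small MAF protein, was at 11.4, 7.36 and 7.33 FPKM in uninjured and 14.9, 4.15 and 24.4 in injured replicates 1 to 3. Its relative Mafk was at 12.2, 5.99 and 6.10 and at 5.30, 2.73 and 16.2. Atf4, the effector of the integrated stress response, had a log2 change of 0.33 (SE 0.33) and Atf2, a stress kinase target, of -0.03 (SE 0.25).

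Among the other first-wave transcription factors, 0 of 13 tested passed in either direction, and the median was 0.32. That median was 0.82 without injured replicate 2 and -0.20 without injured replicate 3. In 12 of the 13, injured replicate 3 was above each uninjured library, which held for 44.7% of all genes tested, and in 10 injured replicate 2 was below each, against 30.6% of all genes. Egr1, a zinc finger protein induced by ERK signalling, was at 281, 260 and 251 FPKM in uninjured and at 159, 122 and 414 in injured replicates 1 to 3. Klf6, a Krüppel-like factor, was at 92.5, 53.8 and 46.9 and at 87.9, 40.6 and 260, and the orphan nuclear receptor Nr4a2 at 13.1, 6.85 and 3.01 and at 8.72, 4.51 and 23.7. The growth regulator Myc, at 10.6, 9.35 and 14.8 FPKM in uninjured and 25.6, 8.49 and 29.8 in injured replicates 1 to 3, was the single gene of the 13 called higher without injured replicate 2, where 3.52% of all genes were. The BMP target Id1, at 61.3, 50.9 and 57.6 and at 21.6, 28.8 and 33.8, was the single gene whose injured libraries were all below the uninjured ones, against 6.75% of genes tested (limma adjusted p = 0.244).

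**Figure D3:**
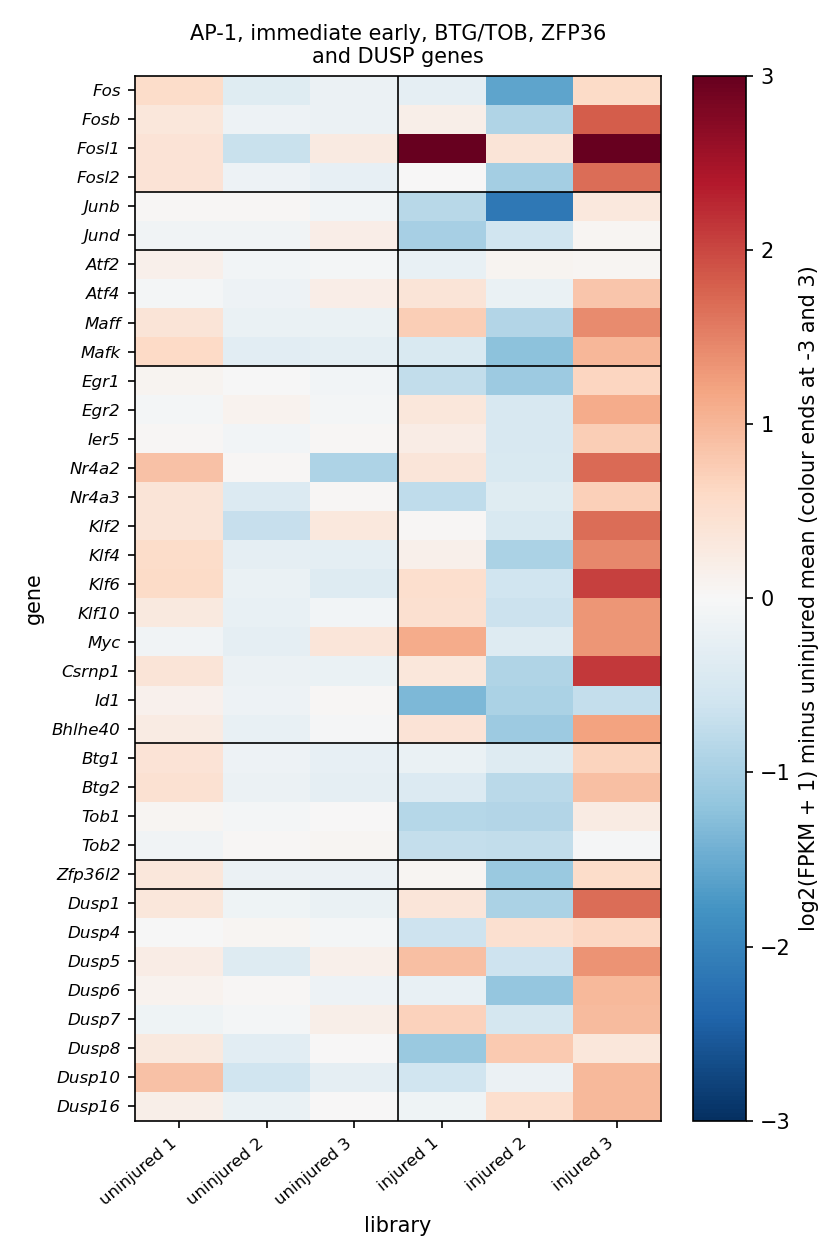
Each tested gene of the Fos, Jun, AP-1 partner, first-wave factor, BTG and TOB, ZFP36 and DUSP lists (rows, lists divided by lines) in the 6 libraries (columns), coloured by log2(FPKM + 1) minus the gene's uninjured mean. The column of injured replicate 2 is mostly below the uninjured mean and that of injured replicate 3 mostly above, and Fosl1, at 4.05 and 4.82 in injured replicates 1 and 3, is past the end of the colour scale.

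The MAP kinase phosphatases and the mRNA decay cofactors around the members held no gene that passed. Of 8 tested DUSP genes, injured replicate 3 was above each uninjured library in 8, against 44.7% of all genes tested. Their median change was 0.26, and -0.12 without injured replicate 3. The ERK phosphatase Dusp6 was at 20.5, 19.5 and 17.1 FPKM in uninjured and at 16.0, 7.96 and 38.2 in injured replicates 1 to 3. Dusp5, the nuclear ERK phosphatase, was at 5.50, 3.23 and 5.19 and at 9.35, 2.60 and 13.0. Dusp7 and Dusp16 had log2 changes of 0.37 (SE 0.38) and 0.45 (SE 0.33). All 4 tested BTG and TOB genes were below each uninjured library in injured replicate 2, against 30.6% of all genes. Their median change was -0.30, and ran from -0.67 without injured replicate 3 to -0.04 without injured replicate 2. Tob1 was at 48.7, 44.7 and 47.6 FPKM in uninjured and at 25.5, 25.2 and 55.8 in injured replicates 1 to 3. Tob2 was at 21.0, 23.4 and 23.7 and at 13.3, 13.1 and 22.0, while Btg1 had a log2 change of 0.02 (SE 0.34). Zfp36l2, an AU-rich element binding decay factor and the single ZFP36 gene tested, was at 31.3, 21.7 and 21.6 and at 25.6, 10.8 and 36.6 FPKM.

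Of the 18 tested kinases and factors upstream of Fos, 3 were below each uninjured library in injured replicate 2, against 30.6% of all genes, and 0 passed, with a median change of 0.36, which was 0.18 after upper-quartile scaling. In 4, all injured libraries were above all uninjured ones, against 12% of genes tested. These were the kinases Braf and Mapk9, Map2k1, which was at 9.94, 7.01 and 12.1 FPKM in uninjured and 12.5, 14.0 and 28.1 in injured replicates 1 to 3, and the p38 kinase Mapk11, at 5.44, 6.06 and 5.29 and at 9.96, 9.81 and 7.85. The ERK kinase Mapk3 had a log2 change of 0.36 (SE 0.34), its activator Map2k2 of 0.46 (SE 0.29) and the ERK-activated kinase Rps6ka3 of 0.49 (SE 0.29). RNA levels of kinases do not show their activity.

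A list of genes known for induction during enzymatic dissociation was divided into 30 immediate early and 17 heat shock genes. Of these, 25 and 10 were tested, while others, among them Jun, Ier2, Atf3, Hspa1a and Hspa1b, were not analysed here. Fos, Dusp1 and Btg2 are in the immediate early part. Of its 25 tested genes, 0 passed over the 6 libraries and 1, Myc, was called higher without injured replicate 2, a share near the 3.52% of all genes. Injured replicate 2 was below each uninjured library in 23 of 25 (30.6% of all genes tested), and injured replicate 3 above each in 21 of 25 (44.7% of all genes). Relative to the uninjured mean the list median was 0.37, -0.85 and 1.31 in injured replicates 1 to 3, and 0.24, -0.17 and -0.11 in uninjured ones. Nfkbia, an NF-kB inhibitor, was at 9.21, 6.34 and 7.84 FPKM in uninjured and 11.03, 7.77 and 25.9 in injured replicates 1 to 3.

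The order of injured replicate 3 over 1 over 2 held in 23 of the 25 immediate early genes and in 9 of the 10 heat shock genes of that list, against 24.8% of all genes tested. In uninjured libraries the highest replicate was not the same in both parts. The median of the heat shock genes was 0.43, -0.48 and 0.81 in injured replicates 1 to 3. It was -0.15, 0.16 and 0.00 in uninjured replicates 1 to 3, where replicate 1 had the highest immediate early values. Uninjured replicate 1 was the highest uninjured library in 17 of 25 immediate early genes and in 2 of 10 heat shock genes, against 32.5% of all genes tested. Over the 6 libraries 0 of 10 passed. The co-chaperone Hsph1 was at 21.1, 27.7 and 22.9 FPKM in uninjured and 163, 32.6 and 219 in injured replicates 1 to 3, and Hspa4 at 25.8, 27.7 and 26.3 and at 53.0, 29.1 and 128. Both had injured libraries that were all above the uninjured ones, against 12% of genes tested. Without injured replicate 2, 2 genes of 10 were called higher, as were 3.52% of all genes. They were Hsph1 and the mitochondrial chaperonin Hspd1, the latter at 34.0, 40.4 and 37.6 and at 87.3, 35.2 and 98.4 FPKM. Its partner Hspe1 was at 0.001, 27.6 and 29.6 and at 59.1, 27.8 and 67.7. The abundant chaperone Hsp90ab1 had a log2 change of 0.52 (SE 0.38).

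**Figure D4:**
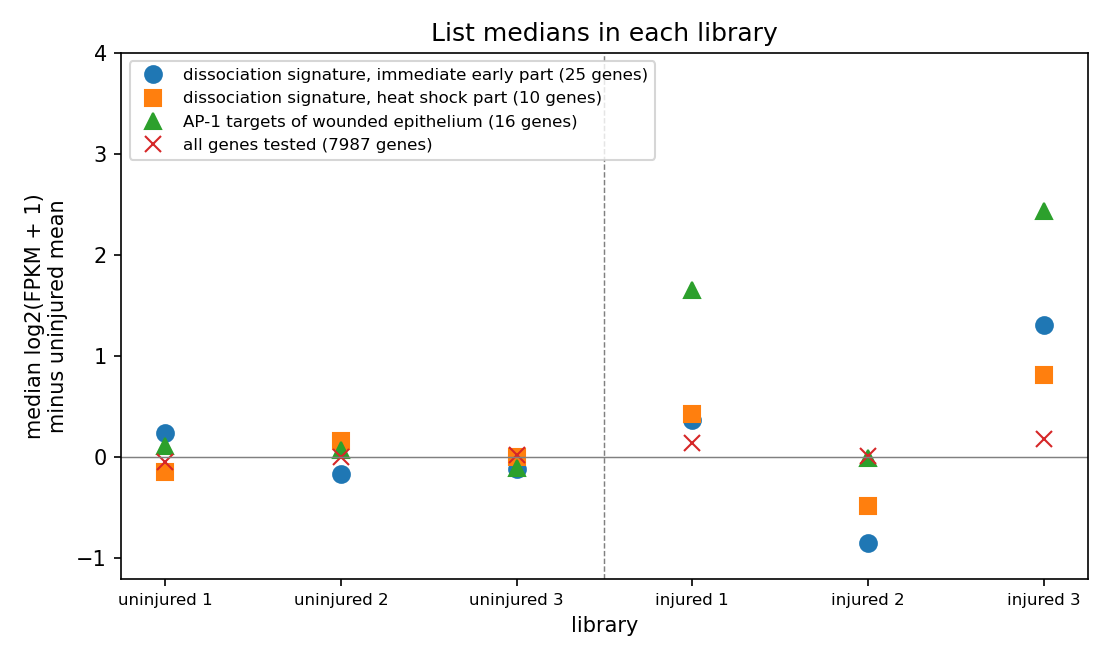
Median of each list in each library, as log2(FPKM + 1) minus the uninjured mean of each gene, for the 2 parts of the dissociation list, the AP-1 target list and all genes tested. In injured replicate 1 the AP-1 targets stand at 1.65 and the immediate early genes at 0.37, and in injured replicate 2 at 0.00 and -0.85.

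Genes known as AP-1 targets in wounded epithelium stood high as a list in injured replicates 1 and 3, the libraries with high Fosl1. The list median over 16 tested genes was 1.65, 0.00 and 2.44 above the uninjured mean in injured replicates 1 to 3, and its median change was 1.13. Over the 6 libraries 0 passed. Without injured replicate 2, 7 of 16 were called higher, as were 3.52% of all genes: Plau, Plaur, Timp1, Ccnd1, Hmga2, Sprr1a and Hbegf. Plau, the urokinase that opens the matrix, was at 0.189, 0.848 and 0.616 FPKM in uninjured and 16.2, 0.687 and 18.8 in injured replicates 1 to 3 (log2 change 2.45, SE 0.89, limma adjusted p = 0.381). Levels of the EGF receptor ligand Hbegf were 4.28, 3.49 and 3.21 and at 26.4, 3.09 and 55.1. In 4 genes of 16, against 12% of genes tested, all injured libraries were above all uninjured ones: the metalloproteinase inhibitor Timp1, the cornified envelope precursor Sprr1a, the chromatin protein Hmga2 and the EGF receptor ligand Areg. In injured replicate 2, where Fosl1 was low, Sprr1a was at 21.8 against 4.78 to 6.9998 FPKM in uninjured libraries, and Hmga2 at 8.99 against 2.07 to 3.44. Cyclin D1 (Ccnd1), which drives entry into the cell cycle, was at 22.7, 32.7 and 37.3 and at 79.1, 33.5 and 102 FPKM. Earlier results of these data were known when this list was made, so its counts are a description.

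The genes most like each member were those with the smallest largest gap, over the 6 libraries, between log2(FPKM + 1) values centred on each gene's own mean. Nearest to Fosl1 were Rai12 (gap 0.78), Il1rn (0.89) and Fst (1.02). Il1rn, the interleukin 1 receptor antagonist, was at 0.221, 0.410 and 0.661 FPKM in uninjured and 43.1, 2.25 and 36.8 in injured replicates 1 to 3. Fst, the activin antagonist follistatin, was at 4.14, 1.95 and 2.59 and at 29.7, 3.76 and 38.3. Nearest to Fos were Xdh (0.25), Mafk (0.31) and Zfp36l2 (0.35). Nearest to Dusp1 were Fosb (0.20), Rai14 (0.20) and Ier3 (0.21), and nearest to Btg2 were the kinase Sik1 (0.22), Pqlc1 (0.24) and Dnajb4 (0.24). Of the 3 other members, Btg2 was the nearest to Fos (0.61) and to Dusp1 (0.54), and Fosl1 was 2.32 or more from each.

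Markers of other cells moved between the libraries as well. The 8 neuronal markers in the table, of 10 listed, summed to 448 to 775 FPKM in uninjured libraries and to 162, 686 and 136 in injured replicates 1 to 3. By this sum injured replicate 2, with the lowest Fos, Dusp1 and Btg2 of all libraries, was within the range of uninjured libraries. The single markers did not move alike. Stoml3, the most abundant, was at 168 FPKM in injured replicate 2 and at 316 to 561 in uninjured libraries. Stoml3 and Adcy3 were the 2 of 8 markers below each uninjured library in injured replicate 2, against 30.6% of all genes. Relative to the uninjured mean, the median log2 value of the 8 markers was -1.74, 0.78 and -1.53 in injured replicates 1 to 3. It was -0.27, 0.03 and 0.25 in uninjured replicates 1 to 3. By this median, unlike the sum, injured replicate 2 was above each uninjured library. The 7 basal cell markers in the table, of 10 listed, were all below each uninjured library in injured replicate 2, against 30.6% of all genes. The 6 sustentacular and gland markers, of 10 listed, summed to 4487 to 6469 FPKM in uninjured and 2079 to 6644 in injured libraries. Their median log2 change was -0.78. In 3 of the 6, Cyp1a2, Muc2 and Plunc, all injured libraries were below all uninjured ones, against 6.75% of genes tested. Reg3g went the other way in injured replicates 1 and 3, at 4322 and 2125 FPKM against 1294 to 1725 in uninjured libraries. It was at 799 FPKM in injured replicate 2. The 3 fibroblast markers, of 6, summed to 126 to 220 FPKM in uninjured and 32.8 to 101 in injured libraries. Dcn was lower in each injured library. Col1a1 and Col1a2 were highest in injured replicate 1, at 26.9 and 46.5 FPKM, and next highest in uninjured replicate 2, at 26.2 and 31.6. The 5 leukocyte markers, of 13, summed to 18.6 to 51.8 FPKM in uninjured libraries and to 108, 29.9 and 48.5 in injured replicates 1 to 3. Of these 5, 4 were above each uninjured library in injured replicate 1 and 2 in injured replicate 3, against 42.8% and 44.7% of all genes tested. The pan-leukocyte gene Ptprc was at 17.9 FPKM in injured replicate 1 and at 3.52 or less in all others. The neutrophil genes S100a8 and S100a9 were at 22.9 and 18.4 FPKM in injured replicate 3, above their highest uninjured values of 19.1 and 17.1. The myeloid adaptor Tyrobp, at 2.00 FPKM in injured replicate 1 and 1.97 in injured replicate 3, was below each uninjured library in both. In bulk RNA fewer cells of a type and less RNA per cell cannot be told apart. The part of any of these cells in the levels of the 4 members was not tested.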

How the data were processed

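The authors deposited a single table of genes by libraries, whose values are read here as FPKM made with Cuffdiff. The table states no unit, but Cuffdiff appears among the tools and the heading of the gene column is the one it writes. The submitters' processing notes list FastQC, TopHat, Cuffdiff and mm9. Versions, annotation, scaling between libraries and the filter behind the 8078 rows are not given in the sources used here. Those 7987 genes averaging 1 FPKM or more were tested with limma 3.58.1 in R 4.3.3 on log2(FPKM + 1), injured against uninjured, 3 libraries each, with eBayes (trend, robust) and a Benjamini-Hochberg adjusted threshold of 0.05. The script was tested on simulated data. Since libraries are pools, p-values measure the spread between pools. Entries that join several symbols were left out of the lists.

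The members and lists were chosen with earlier results of these data known. Named were the members, all tested AP-1 genes, in each other pathway list up to 4 genes with the largest change and the 2 most abundant, and the 3 genes most like each member. A few others, among them Braf, Mapk9, Hbegf, Areg, Plaur and Xist, were named after their values were seen. Some genes that the rule names are not reported here. RefSeq promoters matched 3 of 4 members. Alternatives were the replicate number as a block, fits without single libraries, other filters (none, 5 FPKM) and pseudocounts of 0.1 and 0.5. Others were a plain eBayes step, scaling by upper quartile or quantiles, library weights, a threshold of 0.01 and leaving out Mir703. The Mir703 entry held 22.0% to 25.4% of the sum of each uninjured library and 8.01% to 18.6% of each injured one, so its share differed by group. Figures used Python 3.11.15 and matplotlib 3.10.9.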

Additional observations from a re-analysis of the deposited data

How the results depend on the processing

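The log2 change of Fosl1 stayed positive under each alternative and was called with the replicate block (3.08, limma adjusted p = 1.07e-07) and without injured replicate 2 (4.43). The block treats same-numbered libraries as pairs, which, as given below, they are not taken to be, so its small p carries no weight here. The limma adjusted p of Fosl1 ranged from 1.07e-07 to 0.839. Leaving out 1 library gave 2.22 to 4.43 for Fosl1, -0.93 to 0.15 for Fos, -0.29 to 1.02 for Dusp1 and -0.61 to 0.24 for Btg2, none of the last 3 called. Fos changed sign without injured replicate 2, Dusp1 without injured replicate 3 (-0.29), and Btg2 without uninjured replicate 1 (0.12), injured replicate 1 (0.04) or injured replicate 2 (0.24). With library weights Fos was at 0.094 and Btg2 at 0.23. The cause was not tested. Fosl1 minus Fos shifted by 3.10 to 4.28 without single libraries and by 4.89 with a pseudocount of 0.1, which by construction weighs low values more.

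Over all genes 0 were higher and 1 lower, and 571 and 323 before adjustment (limma, p of 0.05). Leaving out 1 library gave 0 to 278 higher and 1 to 92 lower, the most without injured replicate 2. The replicate block gave 134 higher and 87 lower, library weights 85 and 49, and limma without trend and robust steps 3 and 3. Lower genes numbered 3 with upper-quartile scaling, 4 with quantile normalization, 2 with a pseudocount of 0.1 and 5 without Mir703. Same-numbered libraries did not deviate together (correlations of deviations across genes -0.089, 0.068 and -0.078), so the numbers are not taken to pair the pools. Of the 93 tested genes of the pathway lists, limma called 0 without the trend and robust steps and 8 with the block (Fosl1, Hsph1, Plau, Plaur, Hmga2, Sprr1a, Il6 and Hbegf). List medians rested on single libraries: leaving out 1 gave -0.44 to 0.92 for the Fos family, -0.20 to 0.82 for first-wave factors, -0.29 to 0.89 for immediate early genes of the dissociation list, -0.12 to 0.41 for DUSP genes and -0.07 to 0.43 for AP-1 partners, each lowest without injured replicate 3. The AP-1 targets stayed at 0.86 to 1.69. The median of the upstream kinases was 0.36, and 0.17 to 0.18 with upper-quartile scaling, quantile normalization or Mir703 left out, where that of all genes was 0.16, and -0.023 to 0.0087. Read depth is unknown and limits what low values, such as those of Fosl1 without injury, can show.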
